A study of Mus musculus with 16 samples.

Results

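Integrin and laminin subunits were followed over 3 types of genetically induced mouse brain tumour and normal brain. Members were chosen by symbol alone: Itga and Itgb genes that end in a number or in one of the letters v, m, l, x, d and e, and Lama, Lamb and Lamc genes that end in a number. This gave 35 of the 19938 genes measured, of which 25 code for integrin chains and 10 for laminin chains. Each gene was read by 1 probe set, a group of short DNA probes on the array that match its transcript.

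Integrins are cell surface receptors built from an alpha and a beta chain, and each pair binds a set of matrix proteins or counter-receptors and ties them to the actin cytoskeleton. Laminins are cross-shaped matrix proteins built from an alpha, a beta and a gamma chain, and they form the core sheet of basement membranes. In the adult brain, basement membranes wrap the blood vessels and cover the brain surface, and glioma cells are known to migrate along vessels.

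The 16 arrays held total RNA of 4 groups, with 4 arrays each. The p53-RBPJ tumours (labelled p53-/-RBPjk-/-) arose without a virus, after Cre recombinase from a Hes5::CreERT2 transgene, which is active in Hes5+ cells, deleted floxed p53 and RBPjk. The PDGF-p53-RBPJ tumours (PDGF+p53-/-RBPjk-/-) were started by a retrovirus carrying PDGF-B and Cre in mice with the same pair of floxed genes. The PDGF-p53 tumours (PDGF+p53-/-) were started by the same retrovirus in mice in which p53 alone was floxed. The controls were normal brain, wild type for Pdgfb, Trp53 and Rbpj. RBPJ is the DNA-binding protein through which Notch receptors act. The labels give no age or strain, nor do they say whether each array is its own animal. The p-values therefore cover the variation among these arrays, which may be technical in part. The p53-RBPJ type differs from both PDGF types in the virus with its PDGF-B and in the source of Cre. From the PDGF-p53 type it differs in the loss of RBPJ as well. Within each comparison these differences cannot be told apart. Tumour tissue was dissected from symptomatic mice under guidance of GFP, a reporter turned on by Cre, so host cells could remain in each sample. In such bulk samples, fewer cells of a type and less RNA per cell cannot be told apart.

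Values are log2 expression, so a difference of 1 is a doubling. Group means were compared with limma over all genes, and a gene is called higher or lower where its Benjamini-Hochberg adjusted p was under 0.05. Rbpj, the gene deleted in the RBPJ tumour types, read 7.76, 7.64, 7.81 and 7.93 in p53-RBPJ tumours, 7.69, 7.88, 7.55 and 7.81 in PDGF-p53-RBPJ tumours, 8.50, 8.41, 8.19 and 8.17 in PDGF-p53 tumours, and 8.11, 8.21, 7.76 and 7.96 in normal brain. All arrays of both RBPJ types lay below all PDGF-p53 arrays. Relative to PDGF-p53, Rbpj differed by -0.53 ± 0.13 (SE, adjusted p = 0.0191) in the p53-RBPJ type. For the PDGF-p53-RBPJ type this difference was -0.59 ± 0.13, which missed the threshold (adjusted p = 0.269), and neither RBPJ type was called against normal brain. A probe set can read exons outside the floxed part. Trp53 was not analysed here. Pdgfb read 5.76, 5.37, 5.77 and 5.23 in p53-RBPJ, 6.19, 5.88, 6.05 and 5.97 in PDGF-p53-RBPJ and 6.06, 5.94, 5.81 and 6.31 in PDGF-p53 tumours. In normal brain it read 5.71, 5.69, 6.20 and 5.96, so both PDGF types overlapped with the controls. Whether its probe set reads the viral copy was not tested.

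Some features of the samples moved with the groups. The 12 neuron markers were lower in each tumour type, and the summed level of the list, as a mean per array, was 6.52 to 7.78 in p53-RBPJ, 7.12 to 8.41 in PDGF-p53-RBPJ, 7.36 to 8.82 in PDGF-p53 and 10.65 to 10.75 in normal brain. PDGF-p53 replicate 3 held the 8.82. Leaving it out left the number of members called against normal brain in PDGF-p53 tumours at 15, but not the same members. Itga3 was no longer called (-0.41, adjusted p = 0.0815 by limma) and Lamb2 was called lower (-0.42, adjusted p = 0.043). Markers of oligodendrocyte precursors were higher for 10, 11 and 11 of 11 genes in p53-RBPJ, PDGF-p53-RBPJ and PDGF-p53 tumours. Markers of mature oligodendrocytes were lower for 7, 6 and 7 of 11 genes in the same order. Astrocyte markers were lower for 10 of 12 genes in each tumour type, and all 9 proliferation genes were higher in each. All 4 p53-RBPJ arrays had the female pattern of Xist and of Y-linked genes, against 1 of 4 in each PDGF type and 2 of 4 in normal brain. The part of cell mixture and of sex in the results was not tested, apart from the values with a sex term given beside them.

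Against normal brain, many members were higher in tumours and fewer were lower. In p53-RBPJ tumours 11 of the 35 members were higher and 6 lower, so 48.6% were called, against 36.8% of all genes. PDGF-p53-RBPJ tumours had 11 higher and 3 lower, which is 40% against 33.6% of all genes. In PDGF-p53 tumours 10 were higher and 5 lower, which is 42.9% against 31.1% of all genes. Members called higher made up 31.4%, 31.4% and 28.6% in these types in turn, against 16.4%, 15.7% and 13.6% of all genes. Members called lower made up 17.1%, 8.57% and 14.3%, against 20.4%, 17.9% and 17.6% of all genes. The median difference of the members was 0.06, 0.26 and 0.22, against -0.02, -0.03 and -0.04 over all genes. These shares and medians describe the list and carry no test. When arrays were centred on housekeeping genes, which shifted all genes by -0.10 in PDGF-p53-RBPJ and -0.11 in PDGF-p53 tumours, the PDGF-p53-RBPJ split of the members was 9 higher and 6 lower. Of these 10 housekeeping genes, 3 were themselves called higher than normal brain in each tumour type. Another 4, 3 and 3 were lower in p53-RBPJ, PDGF-p53-RBPJ and PDGF-p53 tumours, so they are no stable reference against normal brain.

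The 3 comparisons share the control arrays. Of the members, 7 were called higher in each tumour type, namely Itga1, Itga9, Itgax, Itgb1, Itgb8, Lama4 and Lamc1, and 10.2% of all genes were. Another 3 members, Itgb4, Lama2 and Lama3, were called lower in each type, as were 14.1% of all genes. A further 12 members passed in 1 or 2 types and 13 in none. No member was called in opposite directions in different types. Of the members called in each type, Itgax, Itgb4 and Lama3 lost a call in a PDGF type in 3 to 5 of 26 settings, nearly all of them with 1 array left out.

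**Figure D1:**
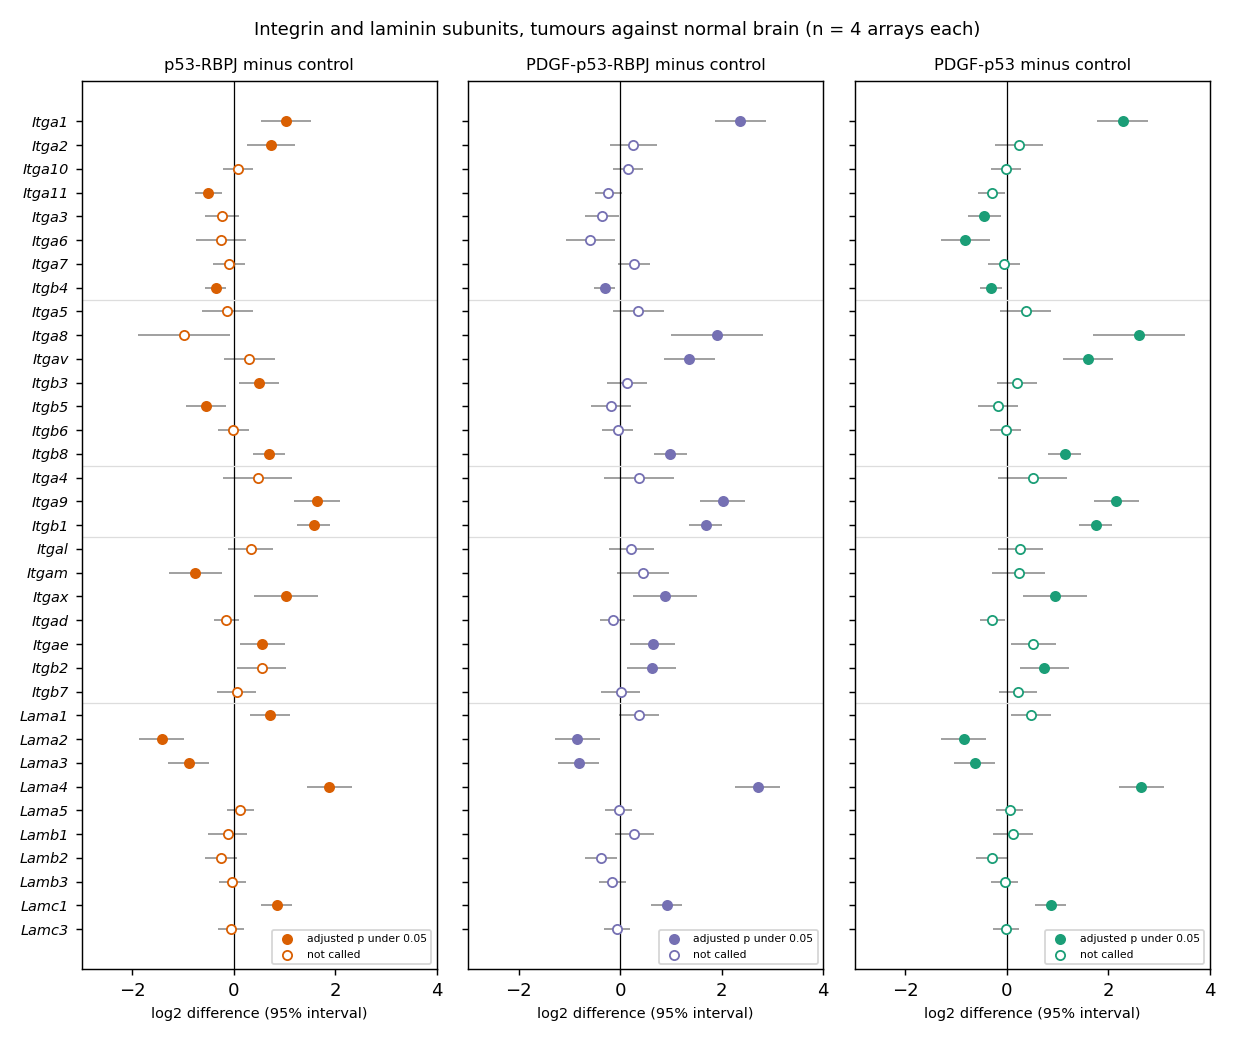
Log2 difference from normal brain for each member, with its 95% interval, in p53-RBPJ (left), PDGF-p53-RBPJ (middle) and PDGF-p53 tumours (right), 4 arrays a group. Filled points have an adjusted p under 0.05, and lines part the members by role. Lama4, Itga1 and Itga9 lie far to the right in all panels, while Itga8 lies right of 0 in both PDGF types and left of it in p53-RBPJ tumours.

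Itgb1, the beta chain shared by most matrix-binding integrins, was among the most uniform changes. It read 10.68, 10.82, 10.72 and 10.34 in p53-RBPJ, 10.74, 10.87, 10.77 and 10.59 in PDGF-p53-RBPJ, 10.99, 11.19, 10.49 and 10.57 in PDGF-p53 tumours, and 9.05, 8.97, 8.97 and 9.25 in normal brain. Every tumour array lay above every control array. The log2 differences were 1.58 ± 0.15 (SE, adjusted p = 2.54e-07), 1.68 ± 0.15 (2.27e-07) and 1.75 ± 0.15 (1.78e-07) in the same order of tumour types.

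The 4 alpha chains that pair with beta 1 to bind collagens behaved unequally. Itga1 read 8.63, 7.81, 7.85 and 7.64 in p53-RBPJ, 9.41, 9.34, 9.58 and 8.95 in PDGF-p53-RBPJ, 9.39, 9.88, 8.63 and 9.05 in PDGF-p53 tumours, and 6.94, 7.05, 6.71 and 7.11 in normal brain. All tumour arrays exceeded all control arrays, with differences of 1.03 ± 0.24 (adjusted p = 0.00207), 2.37 ± 0.24 (6.75e-07) and 2.29 ± 0.24 (1.19e-06). Its neighbour on chromosome 13, Itga2, was higher in p53-RBPJ tumours alone by this threshold, at 6.47 ± 0.39 against 5.74 ± 0.29 in normal brain (SD, n = 4 each), a difference of 0.74 (adjusted p = 0.0132), though no difference of Itga2 between tumour types was called. The call was lost without p53-RBPJ replicate 2, which read 7.05 (difference 0.54, adjusted p = 0.0567), without control replicate 3 (0.0535) and with a sex term (0.0612). Itga11 was lower in p53-RBPJ tumours, by -0.50 ± 0.13 (adjusted p = 0.004), but it lies among the dimmest 30% of genes on these arrays. Itga10 was not called, with differences between -0.02 and 0.16.

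Of the 4 chains specific to the classical laminin receptors, Itga3, Itga6, Itga7 and Itgb4, none was called higher in any comparison. Itga6, which pairs with beta 1 or beta 4, averaged 7.81 ± 0.65 in p53-RBPJ, 7.48 ± 0.24 in PDGF-p53-RBPJ, 7.25 ± 0.16 in PDGF-p53 tumours and 8.07 ± 0.18 in normal brain. Only the PDGF-p53 difference passed, at -0.82 ± 0.23 (adjusted p = 0.0113), and the PDGF-p53-RBPJ value of -0.59 had an adjusted p of 0.0595. The p53-RBPJ arrays spread widely, at 6.91, 7.99, 8.45 and 7.92, and the lowest lay below every other array of the series. Itgb4, the hemidesmosome chain, was lower in all types by small amounts, -0.35 ± 0.10, -0.31 ± 0.10 and -0.31 ± 0.10, with adjusted p of 0.00903, 0.0223 and 0.0221. Itga3 was lower in PDGF-p53 tumours, by -0.45 ± 0.16 (adjusted p = 0.0357), and its arrays overlapped with the controls. That call was lost in 6 of 26 settings. Itga7 was not called, with differences between -0.09 and 0.27.

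Among the alpha chains that recognise the RGD motif of fibronectin, vitronectin and related proteins, Itga8 and Itgav moved and Itga5, the classical fibronectin receptor chain, was not called. Itga8 is known for pairing with beta 1 and binding nephronectin in the developing kidney. Its values were 6.30, 6.28, 5.53 and 5.34 in p53-RBPJ, 9.13, 8.72, 9.42 and 7.74 in PDGF-p53-RBPJ, 9.01, 10.51, 10.06 and 8.23 in PDGF-p53 tumours, and 6.38, 6.79, 7.44 and 6.78 in normal brain. Both PDGF types lay wholly above normal brain and the p53-RBPJ arrays lay wholly below it. Against normal brain the Itga8 difference was -0.99 ± 0.43 (adjusted p = 0.0839) in p53-RBPJ, 1.90 ± 0.43 (0.00197) in PDGF-p53-RBPJ and 2.60 ± 0.43 (0.000138) in PDGF-p53 tumours. Without PDGF-p53 replicate 3 the PDGF-p53 value was 2.40 (adjusted p = 0.000555). Among all members, the spread within the PDGF types was widest for Itga8, with an SD of 0.74 in PDGF-p53-RBPJ and 1.03 in PDGF-p53.

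Itgav, the alpha v chain that pairs with several beta chains, read 9.76, 10.29, 9.27 and 10.17 in p53-RBPJ, 11.01, 10.84, 11.13 and 10.71 in PDGF-p53-RBPJ, 10.77, 11.65, 11.21 and 11.01 in PDGF-p53 tumours, and 9.80, 10.01, 9.12 and 9.31 in normal brain. Both PDGF types were above all controls, and the p53-RBPJ arrays ran through the control range. The differences were 0.31 ± 0.23 (adjusted p = 0.339), 1.36 ± 0.23 (0.000183) and 1.60 ± 0.23 (4.19e-05). Itga5 differences lay between -0.13 and 0.37, with adjusted p from 0.272 to 0.734.

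Of the beta partners of alpha v other than Itgb1, which are Itgb3, Itgb5, Itgb6 and Itgb8, only Itgb8 was higher in every type. This chain forms the alpha v beta 8 receptor, which activates latent TGF-beta in the brain. It read 10.18, 9.67, 9.44 and 9.77 in p53-RBPJ, 10.07, 10.25, 10.12 and 9.80 in PDGF-p53-RBPJ, 10.18, 10.33, 10.09 and 10.25 in PDGF-p53 tumours, and 8.91, 9.07, 8.94 and 9.36 in normal brain. No tumour array fell to the control range, and the differences were 0.69 ± 0.15 (adjusted p = 0.00135), 0.99 ± 0.15 (6.07e-05) and 1.14 ± 0.15 (1.58e-05). In p53-RBPJ tumours Itgb3 was slightly higher, by 0.49 ± 0.19 (adjusted p = 0.048), and Itgb5 lower, by -0.55 ± 0.19 (adjusted p = 0.0261). The Itgb3 call was lost in 14 of 26 alternative settings. Itgb6, the epithelial partner, was not called and was the dimmest member.

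Itga9, a receptor chain for tenascin-C and VCAM-1, was raised in all types. It read 7.70, 8.33, 8.09 and 8.02 in p53-RBPJ, 8.13, 8.23, 8.55 and 8.75 in PDGF-p53-RBPJ, 8.86, 8.93, 8.10 and 8.32 in PDGF-p53 tumours, and 6.29, 6.84, 5.98 and 6.48 in normal brain. No tumour array overlapped with the controls, and the differences were 1.64 ± 0.21 (adjusted p = 7.53e-06), 2.02 ± 0.21 (1.11e-06) and 2.16 ± 0.21 (6.78e-07). Its close relative Itga4 was not called, at 7.37 ± 0.66, 7.27 ± 0.18, 7.41 ± 0.52 and 6.90 ± 0.63 in the same order, ending with normal brain (SD, n = 4).

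Of the 10 laminin chains, Lama4 and Lamc1 were higher and Lama2 and Lama3 lower in each tumour type. Lama4, the alpha chain of the laminins of blood vessels, had the largest difference from normal brain of any member in each tumour type. It read 8.33, 7.71, 7.73 and 8.78 in p53-RBPJ, 8.96, 8.96, 8.89 and 9.03 in PDGF-p53-RBPJ, 8.93, 9.32, 8.54 and 8.81 in PDGF-p53 tumours, and 5.95, 6.19, 6.38 and 6.47 in normal brain. The lowest tumour array exceeded the highest control array by more than a log2 unit. The differences were 1.89 ± 0.21 (adjusted p = 1.33e-06), 2.71 ± 0.21 (3.89e-08) and 2.65 ± 0.21 (6.53e-08), which is 3.70-fold, 6.54-fold and 6.29-fold. PDGF-p53-RBPJ arrays agreed closely on Lama4, with an SD of 0.06.

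Lamc1, the gamma chain of most laminins, read 8.22, 8.42, 8.16 and 8.55 in p53-RBPJ, 8.33, 8.39, 8.37 and 8.53 in PDGF-p53-RBPJ, 8.34, 8.70, 7.93 and 8.45 in PDGF-p53 tumours, and 7.31, 7.66, 7.48 and 7.51 in normal brain. All tumour arrays were above the controls, by a similar amount in each type, at 0.85 ± 0.15 (adjusted p = 0.000144), 0.91 ± 0.15 (8.43e-05) and 0.86 ± 0.15 (0.000174). The 3 beta chains, Lamb1, Lamb2 and Lamb3, were not called in any comparison of the full fit, and neither was Lama5, the other alpha chain typical of vessels. Lamb2 was called lower than normal brain in 8 of 26 alternative settings in PDGF-p53-RBPJ and in 1 in PDGF-p53 tumours. Lama5 differences from normal brain were 0.13, -0.03 and 0.06, with 95% intervals that stayed within -0.29 and 0.39.

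The remaining laminin alpha chains included members that were lower and 1 that was higher. Lama2, the laminin chain of muscle and nerve whose loss causes a congenital muscular dystrophy, read 5.52, 5.40, 5.78 and 5.54 in p53-RBPJ, 5.77, 6.11, 6.28 and 6.36 in PDGF-p53-RBPJ, 6.67, 6.04, 6.42 and 5.38 in PDGF-p53 tumours, and 6.81, 7.13, 6.88 and 7.09 in normal brain. Every tumour array was below every control array, with differences of -1.42 ± 0.21 (adjusted p = 3.06e-05), -0.85 ± 0.21 (0.00416) and -0.85 ± 0.21 (0.00435). Lama3, a chain of an epithelial laminin, was lower by -0.89 ± 0.19 (adjusted p = 0.00125), -0.82 ± 0.19 (0.0028) and -0.64 ± 0.19 (0.0169). PDGF-p53 replicate 3 read 5.94 for Lama3, within the control range of 5.70 to 6.20. Lama1, the chain of embryonic basement membranes, was higher in p53-RBPJ tumours, by 0.71 ± 0.19 (adjusted p = 0.00583), with no overlap with the controls. Lamc3 stayed within differences of -0.07 and -0.01 and was not called.

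Markers of the vessel cells that make such laminins are given beside these values. Of 11 endothelial markers, 1 was higher and 3 lower in p53-RBPJ, 0 and 2 in PDGF-p53-RBPJ, and 0 and 2 in PDGF-p53 tumours. The mean of the endothelial list was 6.32 to 6.74 in p53-RBPJ, 6.43 to 6.76 in PDGF-p53-RBPJ, 6.40 to 6.79 in PDGF-p53 tumours and 6.79 to 6.95 in normal brain. Tek, the angiopoietin receptor, and Slco1a4, a transporter of the blood-brain barrier, were lower in each tumour type, with Slco1a4 down by a log2 difference of -2.59 ± 0.31 (adjusted p = 4.17e-06) in PDGF-p53-RBPJ and -2.07 ± 0.31 (5.29e-05) in PDGF-p53. Of 10 markers of mural cells, the pericytes and smooth muscle of vessels, 1 was higher and 1 lower in p53-RBPJ, 2 and 1 in PDGF-p53-RBPJ, and 0 and 1 in PDGF-p53 tumours. The mean of the mural list ran from 6.17 to 6.53, 6.31 to 6.70 and 6.23 to 6.55 in the tumour types in this order and from 6.34 to 6.47 in normal brain. In each tumour type the endothelial list mean lay at or below the low end of the control range, and the mural list mean ran across that range. The median difference of the 11 endothelial genes was -0.21 in p53-RBPJ, 0.04 in PDGF-p53-RBPJ and -0.06 in PDGF-p53 tumours. The low endothelial means of the PDGF types thus rest largely on few genes, Slco1a4 among them. The part of vessel cells in the laminin values was not tested.

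**Figure D2:**
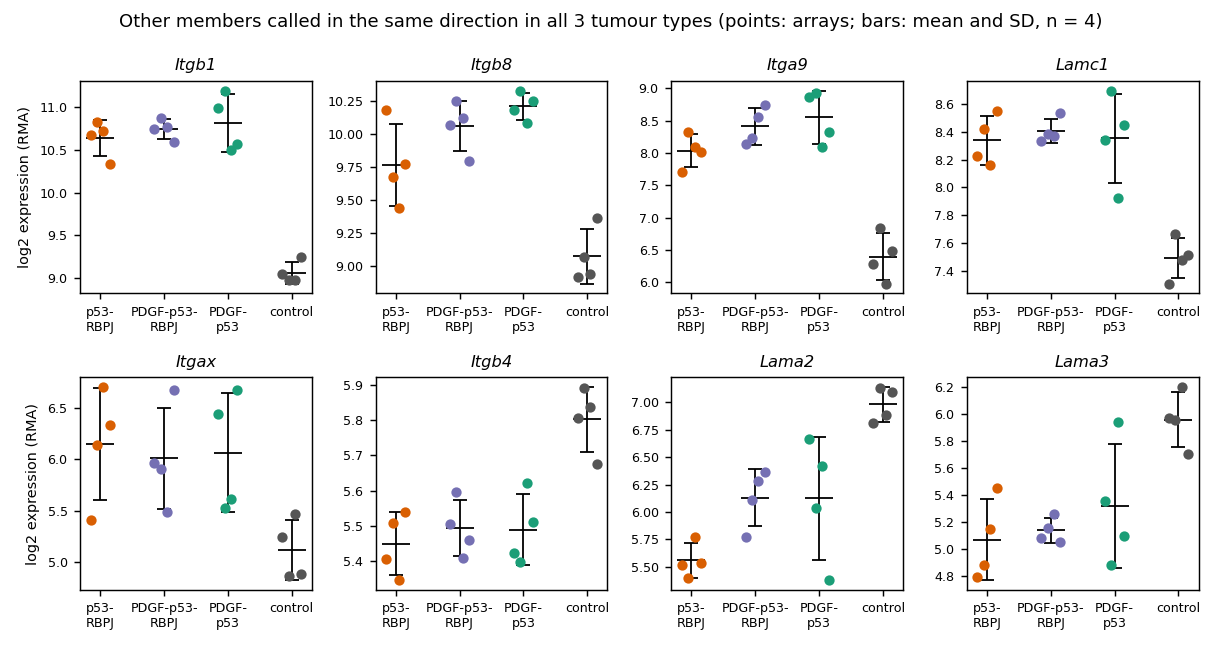
Log2 expression of 8 members called in the same direction in all 3 tumour types, with each array as a point and bars for the mean and SD (n = 4). Groups run from p53-RBPJ and PDGF-p53-RBPJ to PDGF-p53 and control. Itgb1, Itgb8, Itga9 and Lamc1 show no overlap between tumours and control, Itgax does in p53-RBPJ tumours, and in Lama2 and Lama3 the PDGF-p53 arrays spread most.

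Several integrins belong to leukocytes and in brain to microglia and macrophages. Itgax, the CD11c chain, read 5.41, 6.14, 6.70 and 6.34 in p53-RBPJ, 5.97, 5.90, 5.49 and 6.68 in PDGF-p53-RBPJ, 6.44, 5.53, 5.61 and 6.67 in PDGF-p53 tumours, and 5.25, 4.87, 5.47 and 4.89 in normal brain. Only the first p53-RBPJ array overlapped with the controls, and the differences were 1.03 ± 0.30 (adjusted p = 0.0113), 0.89 ± 0.30 (0.0289) and 0.94 ± 0.30 (0.0221). Itgb2, the beta chain shared by these receptors, was higher by 0.62 ± 0.23 (adjusted p = 0.0464) in PDGF-p53-RBPJ and 0.74 ± 0.23 (0.0193) in PDGF-p53 tumours. In p53-RBPJ tumours the Itgb2 value was 0.55 ± 0.23 (adjusted p = 0.0695), although all 4 arrays lay above the controls. The Itgb2 call in PDGF-p53-RBPJ tumours was lost in 12 of 26 settings.

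Itgam, the CD11b chain that marks microglia and macrophages, went the other way in p53-RBPJ tumours. It read 5.17, 5.53, 6.49 and 5.91 there, 6.72, 7.26, 6.99 and 6.96 in PDGF-p53-RBPJ, 6.62, 6.62, 6.44 and 7.39 in PDGF-p53 tumours, and 6.75, 6.43, 6.76 and 6.20 in normal brain. The third p53-RBPJ array lay inside the control range and the others below it, for a difference of -0.76 ± 0.25 (adjusted p = 0.0212). The PDGF types differed from normal brain by 0.45 (adjusted p = 0.19) and 0.23 (adjusted p = 0.539). With a sex term the p53-RBPJ value was -0.71 (adjusted p = 0.0626), and the call was also lost without p53-RBPJ replicate 1 or 2 and without control replicate 1 or 3. Further probe sets that the annotation gives to Itgam also name Rpl35, a ribosomal protein gene, and were not used.

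Marker lists of the cells that carry these integrins moved too. Of 9 microglia markers, 5 were lower and 1 higher in p53-RBPJ tumours, and the mean of the list was 6.31 to 6.82 there, 6.74 to 7.26 in PDGF-p53-RBPJ, 6.78 to 7.08 in PDGF-p53 tumours and 6.99 to 7.31 in normal brain. The p53-RBPJ arrays were thus all below the controls. Siglech fell by 1.68 and P2ry12, Cx3cr1 and Csf1r by 1.06, 0.97 and 0.97, all genes of resident microglia. Of 10 macrophage and monocyte markers, 3 were higher and 1 lower in p53-RBPJ tumours, with Gpnmb at 3.58, Lyz2 at 2.76 and Ms4a7 at 2.40 higher and Cd163 at -0.80. In PDGF-p53-RBPJ tumours 2 were higher, Gpnmb and Lyz2, and in PDGF-p53 tumours 1, Lyz2, with 1 lower in each, Mrc1. The mean of this list was 6.63 to 7.63 in p53-RBPJ, 6.51 to 6.98 in PDGF-p53-RBPJ, 6.09 to 7.40 in PDGF-p53 tumours and 6.10 to 6.26 in normal brain. The list means of both RBPJ types thus lay wholly above the controls. The median difference of the 10 genes was 0.31, 0.30 and 0.38 in the same order of tumour types, so the few raised genes weigh on these means. Lists for T cells, B cells, NK cells, neutrophils and platelets had no marker called in any tumour type against normal brain. Their part in the integrin values was not tested.

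**Figure D3:**
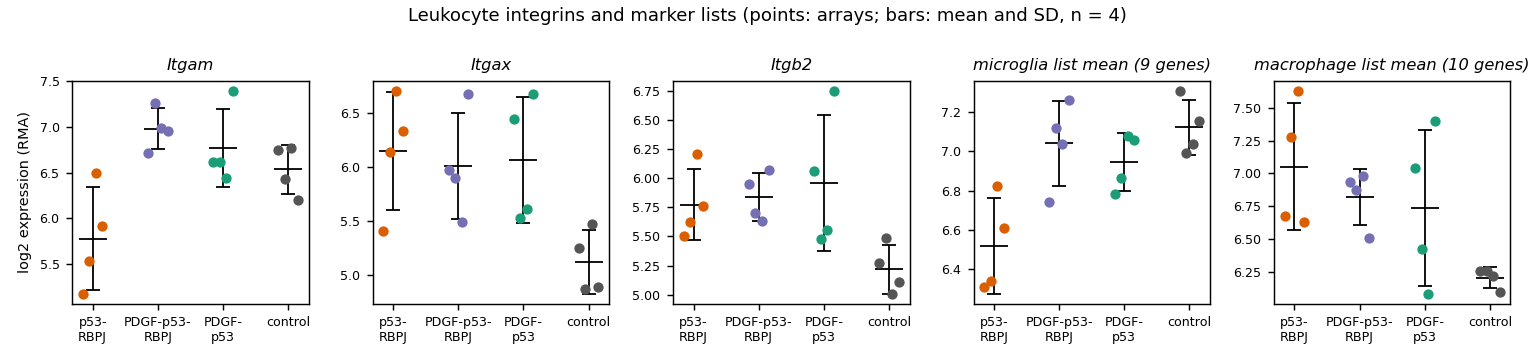
Log2 expression per array of Itgam, Itgax and Itgb2, and per-array means of the microglia list (9 genes) and the macrophage list (10 genes), with bars for mean and SD (n = 4). Groups run from p53-RBPJ to control. Itgam and the microglia list are low in p53-RBPJ tumours, whereas Itgax and the macrophage list are above most control arrays there.

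The other leukocyte chains changed little. Itgae, which pairs with beta 7, was higher by 0.56 ± 0.21 (adjusted p = 0.046) in p53-RBPJ and 0.64 ± 0.21 (0.0267) in PDGF-p53-RBPJ tumours, with overlap in both. These calls were lost in 12 and 5 of 25 settings. Itgal, Itgad and Itgb7 were not called, and Itgae, Itgad and Itgb7 were, with Itga11 and Itgb6, the 5 members among the dimmest 30% of genes. A dim probe set compresses differences.

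The comparison of PDGF-p53-RBPJ with PDGF-p53 tumours asks what loss of RBPJ adds when virus and Cre source are the same. None of the 35 members was called, and across all genes 4 were, which is 0.0201%. At an unadjusted p under 0.05 there was 1 member, Itga7, with a difference of 0.34 and a 95% interval of 0.02 to 0.65 (adjusted p = 0.946). The share of all genes at that unadjusted level was not counted, and 1 such value among 35 can arise by chance. Every member's arrays overlapped between these types, whereas 3.17% of all genes had no overlap. The differences ran from -0.70 to 0.34, with the lowest for Itga8, whose interval was -1.60 to 0.21. For Itgb1 the interval was -0.39 to 0.25, for Lama4 -0.39 to 0.50 and for Itgav -0.73 to 0.26. These intervals are not adjusted for the number of genes and are no limit of detection. A change outside them could also go uncalled, as Rbpj did at -0.59 ± 0.13 (SE, adjusted p = 0.269).

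The p53-RBPJ type was compared with each PDGF type, and these comparisons share the p53-RBPJ arrays. In each, 5 members were lower and 0 higher, which is 14.3% of the members. Over all genes 3.27% were called against PDGF-p53-RBPJ and 5.54% against PDGF-p53, with 2.63% and 3.61% called lower and 0.637% and 1.93% called higher. That split over all genes depended on scaling: centring on housekeeping genes gave 222 lower and 219 higher against PDGF-p53-RBPJ and 418 lower and 858 higher against PDGF-p53, and the members then had 4 lower and 0 higher in each. The 5 members, Itga1, Itga8, Itgam, Itgav and Lama4, were the same in both, while 1.93% of all genes were called lower than both PDGF types. The median over members was -0.07 and -0.04, against -0.01 and 0.01 over all genes. Leaving out PDGF-p53-RBPJ replicate 3 reduced the count against that type to 2, and leaving out its replicate 1 or p53-RBPJ replicate 3 reduced it to 3. Against PDGF-p53 it was 3 without PDGF-p53 replicate 2 and 3 without p53-RBPJ replicate 2.

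**Figure D4:**
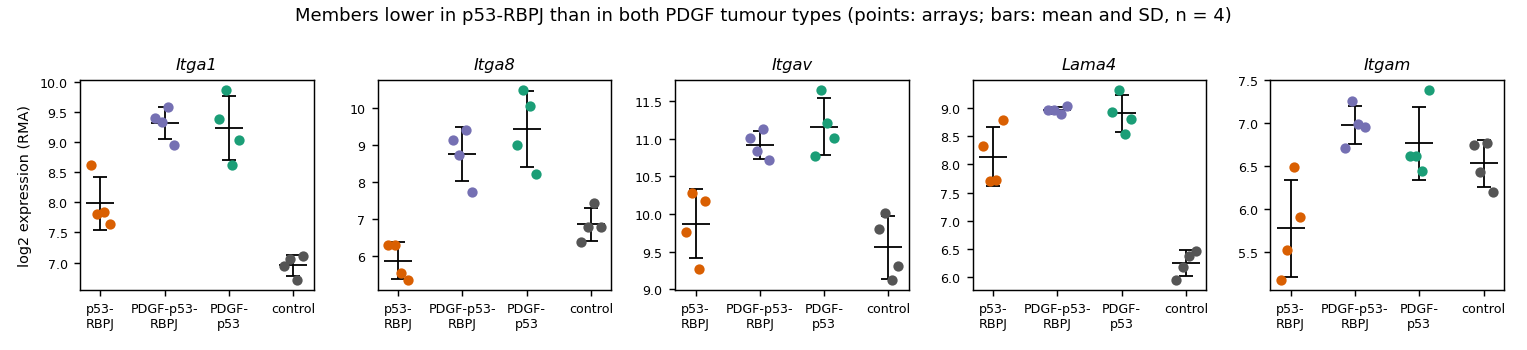
Log2 expression of the 5 members that were lower in p53-RBPJ than in both PDGF tumour types, with each array as a point and bars for mean and SD (n = 4). Groups run from p53-RBPJ to control. Itga8 and Itgav show p53-RBPJ arrays apart from both PDGF types, the highest p53-RBPJ array of Itga1 touches the lowest of PDGF-p53, and a p53-RBPJ array of Lama4 reaches into the PDGF-p53 range.

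Itga8 differed most, by -2.89 ± 0.43 (SE, adjusted p = 0.00207) from PDGF-p53-RBPJ and -3.59 ± 0.43 (adjusted p = 0.000289) from PDGF-p53 tumours. The first of these is 7.41-fold lower, and the highest p53-RBPJ array, at 6.30, was below the lowest PDGF array, at 7.74. For Itga1 the differences were -1.34 ± 0.24 (adjusted p = 0.00644) and -1.25 ± 0.24 (0.006). The p53-RBPJ arrays of Itga1 still lay above normal brain, so that type stood between the PDGF types and the controls. The Itga1 arrays of p53-RBPJ and PDGF-p53 tumours nearly touched, both reading 8.63 at that edge, and the call against PDGF-p53 was lost with only these groups in the fit (adjusted p = 0.059). Itgav differed by -1.05 ± 0.23 (adjusted p = 0.0222) and -1.29 ± 0.23 (0.00446), with no overlap. The Itgav call against PDGF-p53-RBPJ was lost without PDGF-p53-RBPJ replicate 1 (adjusted p = 0.0676), without its replicate 3 (0.0838) and without p53-RBPJ replicate 3 (0.0661).

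The Itgam differences were -1.20 ± 0.25 (adjusted p = 0.0138) and -0.99 ± 0.25 (0.0246), and the third p53-RBPJ array, at 6.49, overlapped with PDGF-p53. These Itgam calls were lost in 2 and 6 of 26 settings. Lama4 differed by -0.82 ± 0.21 (adjusted p = 0.0408) and -0.76 ± 0.21 (0.0418), with an overlap of the fourth p53-RBPJ array, at 8.78, with PDGF-p53. The Lama4 calls were lost in 12 and 14 of 26 settings. Arrays did not overlap for 5 members against PDGF-p53-RBPJ and 3 against PDGF-p53, against 9.69% and 9.75% of all genes.

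Because the p53-RBPJ arrays were all of the female pattern, the fit was repeated with a sex term, chosen after seeing the data. Then 2 of the 5 members remained called in each comparison. Itga8 differed by -2.80 (adjusted p = 0.036) from PDGF-p53-RBPJ and -3.49 (0.00944) from PDGF-p53, and Itga1 by -1.50 (0.036) and -1.42 (0.0334). Values of the others moved little but missed the threshold, with -0.99 (0.165) and -1.23 (0.0576) for Itgav, -1.13 (0.132) and -0.91 (0.172) for Itgam, and -0.79 (0.239) and -0.73 (0.213) for Lama4. Each PDGF type had 1 array of the female pattern, replicate 3 in PDGF-p53-RBPJ and replicate 1 in PDGF-p53. All 4 p53-RBPJ arrays lay below both of these arrays for each of the 5 members, though by as little as 8.78 against 8.89 for Lama4. The 5 members were selected as lower on these same arrays, so this order was nearly fixed in advance. It is no separate test of sex.

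**Figure D5:**
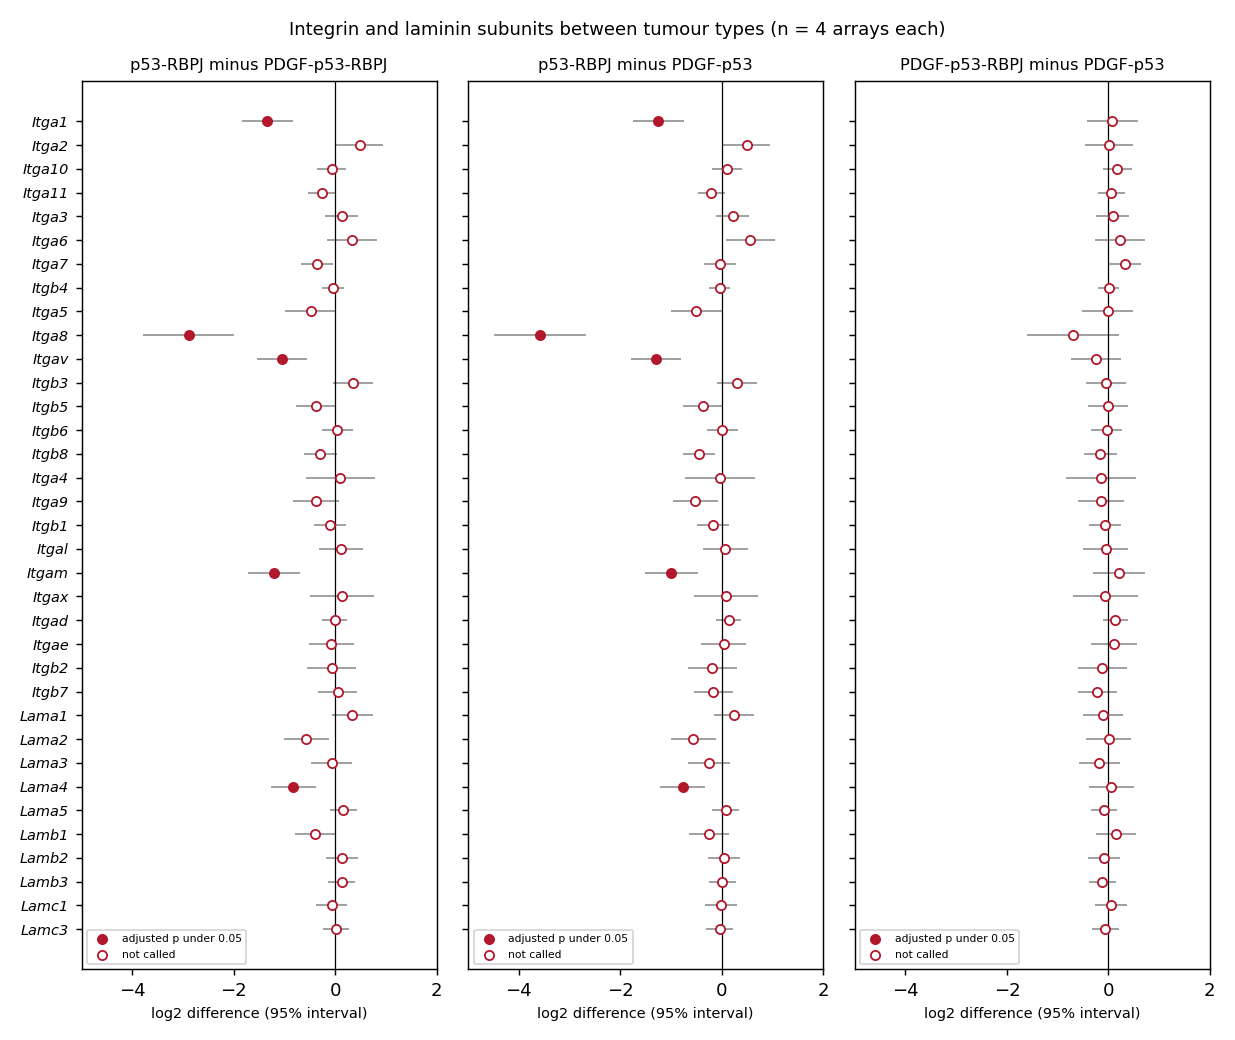
Log2 difference between tumour types for each member, with its 95% interval, for p53-RBPJ minus PDGF-p53-RBPJ (left), p53-RBPJ minus PDGF-p53 (middle) and PDGF-p53-RBPJ minus PDGF-p53 (right). Filled points have an adjusted p under 0.05. The 5 filled points in the left and middle panels are all below 0, and the right panel has none.

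The remaining 30 members had differences between -0.57 and 0.48 from PDGF-p53-RBPJ and between -0.57 and 0.56 from PDGF-p53. Itgb1, the common partner of alpha 1 and alpha 8, differed by -0.10 (95% interval -0.43 to 0.22) and -0.17 (-0.49 to 0.15). Itgb8, a partner of alpha v, differed by -0.29 (-0.61 to 0.03) and -0.45 (-0.77 to -0.13, adjusted p = 0.0969). Lamc1 differed by -0.07 (-0.37 to 0.24) and -0.01 (-0.32 to 0.29).

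To show the start regions of members that were lower in p53-RBPJ tumours, the RefSeq promoter windows (assembly GRCm38.p6, 250 bases before to 50 after the gene start) of 4 of the 5 are printed 5′ to 3′ on the strand of the gene. Lama4 had no entry. They are Itga1 at chr13:115101915-115102214 (minus strand), Itga8 at chr2:12301895-12302194 (minus), Itgav at chr2:83724147-83724446 (plus) and Itgam at chr7:128062390-128062689 (plus). Capitals mark the GC box, GGGCGG or its reverse CCGCCC, the motif known for Sp1.
Itga1: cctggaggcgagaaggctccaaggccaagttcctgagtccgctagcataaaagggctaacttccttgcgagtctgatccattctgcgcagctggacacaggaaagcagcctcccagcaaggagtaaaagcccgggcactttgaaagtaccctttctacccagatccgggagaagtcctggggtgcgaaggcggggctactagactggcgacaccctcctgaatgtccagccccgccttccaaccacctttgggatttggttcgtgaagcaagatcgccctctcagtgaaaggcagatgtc
Itga8: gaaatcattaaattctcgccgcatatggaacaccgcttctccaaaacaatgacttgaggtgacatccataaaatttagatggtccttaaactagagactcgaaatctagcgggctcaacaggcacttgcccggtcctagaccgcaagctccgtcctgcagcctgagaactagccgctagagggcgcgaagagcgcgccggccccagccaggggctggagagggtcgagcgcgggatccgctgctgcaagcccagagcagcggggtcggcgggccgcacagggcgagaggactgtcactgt
Itgav: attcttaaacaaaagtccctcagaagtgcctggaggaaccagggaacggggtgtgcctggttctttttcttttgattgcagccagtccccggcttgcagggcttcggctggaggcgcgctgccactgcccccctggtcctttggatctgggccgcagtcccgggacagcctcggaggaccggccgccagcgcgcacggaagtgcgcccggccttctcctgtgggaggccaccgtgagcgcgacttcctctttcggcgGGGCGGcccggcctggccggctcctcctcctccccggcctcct
Itgam: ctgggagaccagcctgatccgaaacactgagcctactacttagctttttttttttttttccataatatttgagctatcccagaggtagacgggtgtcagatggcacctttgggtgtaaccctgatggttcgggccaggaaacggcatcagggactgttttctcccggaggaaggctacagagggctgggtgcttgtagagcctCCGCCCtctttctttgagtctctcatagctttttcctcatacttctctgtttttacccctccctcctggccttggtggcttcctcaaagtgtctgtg

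The windows of Itgav and Itgam each held 1 GC box and those of Itga1 and Itga8 held 0. None of the 4 held TGGGAA (reverse TTCCCA), the core that RBPJ is known to bind, the AP-1 motif TGACTCA (reverse TGAGTCA) or TATAAA (reverse TTTATA), all searched on both strands. Of 32851 windows of this length, 25.6% held the RBPJ core, 35.7% the GC box, 5.2% the AP-1 motif and 13.6% TATAAA. Members with an entry numbered 22, with 25 windows, of which 4 held the RBPJ core (in Lama2, Lamb1 and Lamb3), 12 the GC box, 2 the AP-1 motif (Itga9 and Itgax) and 0 TATAAA. These are matches of letters in short windows and say nothing of binding.

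Genes that work with the members were counted from lists chosen with earlier results of these data known. Of 15 basement membrane partners, 6 were higher and 1 lower in p53-RBPJ, 6 higher and 1 lower in PDGF-p53-RBPJ, and 7 higher and 0 lower in PDGF-p53 tumours. Nid1, the linker between laminin and type IV collagen, read 7.14, 7.10, 7.18 and 6.71 in p53-RBPJ, 7.54, 7.82, 7.80 and 7.60 in PDGF-p53-RBPJ, 7.68, 7.64, 6.71 and 7.58 in PDGF-p53 tumours, and 6.26, 6.09, 6.41 and 6.60 in normal brain. No tumour array of Nid1 overlapped with the controls, and it was higher by 0.69 (adjusted p = 0.00733), 1.35 (2.18e-05) and 1.06 (0.000272). Agrn, Hspg2, Col18a1, Nid2 and Ntn4, which code for agrin, perlecan, collagen XVIII, nidogen 2 and netrin 4, were higher in each type as well. The main type IV collagen chains Col4a1 and Col4a2 were not called in any comparison.

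Of 18 measured integrin ligands, 2 were higher and 1 lower in p53-RBPJ, 4 and 4 in PDGF-p53-RBPJ, and 5 and 2 in PDGF-p53 tumours. Tnc, the ligand tenascin-C, was higher by 1.86 ± 0.43 (adjusted p = 0.00207), 2.66 ± 0.43 (9.28e-05) and 2.53 ± 0.43 (0.000181). Fn1, fibronectin, was higher by 1.68 ± 0.29 (0.000211) in PDGF-p53-RBPJ and 1.56 ± 0.29 (0.000481) in PDGF-p53 tumours, and its p53-RBPJ value was 0.70 ± 0.29 (adjusted p = 0.0703). Tnr, tenascin-R, was lower in p53-RBPJ than in both PDGF types, by -2.16 ± 0.35 (adjusted p = 0.0036) and -1.63 ± 0.35 (0.012). Npnt, nephronectin, the ligand known for alpha 8 beta 1, was lower than in normal brain in each type, by -0.89, -0.69 and -0.86, with adjusted p of 0.00146, 0.0106 and 0.00242.

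Of 30 measured genes of the adhesion machinery, 9 were higher and 6 lower in p53-RBPJ, 10 and 5 in PDGF-p53-RBPJ, and 11 and 7 in PDGF-p53 tumours. The largest fall was in Ptk2b, the kinase Pyk2, which is abundant in forebrain neurons, by -3.14 ± 0.29 (adjusted p = 1.29e-07), -2.85 ± 0.29 (6.29e-07) and -2.57 ± 0.29 (2.3e-06). The neuron markers given above fell in the same arrays, and their part in it was not tested. The tetraspanin Cd9, a partner of beta 1 integrins, averaged 10.54 ± 0.28 in p53-RBPJ, 11.35 ± 0.08 in PDGF-p53-RBPJ, 11.11 ± 0.31 in PDGF-p53 tumours and 9.35 ± 0.33 in normal brain (SD, n = 4 each). It was higher in each tumour type, with adjusted p of 3.46e-05, 2.04e-07 and 9.27e-07. Flna, filamin A, which links beta chains to actin, was higher by 1.60 ± 0.21 (adjusted p = 7.34e-06), 0.75 ± 0.21 (0.00931) and 0.66 ± 0.21 (0.0213). It was also higher in p53-RBPJ than in PDGF-p53-RBPJ, by 0.86 (adjusted p = 0.0316), and than in PDGF-p53 tumours, by 0.94 (0.0139), opposite in direction to the 5 members.

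Genes whose symbols begin like those of the members but that are no members under the rule showed 2 changes in all types. Itgbl1, which codes for a secreted integrin-like protein, was lower by -1.50, -0.84 and -1.03, with adjusted p of 1.72e-05, 0.00443 and 0.00099. Itgb3bp, a centromere protein gene, was higher by 1.16, 0.92 and 0.58, with adjusted p of 0.000147, 0.00148 and 0.0333. Itga2b, Itgb2l, Itgb1bp1 and Itgb1bp2 were not called against normal brain.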

How the data were processed

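Total RNA was extracted with Trizol and measured on Affymetrix arrays, per the labels' protocols. The deposited values are on the log2 scale and cover 35556 probe sets. The submitters' processing notes name oligo and RMA, by which the authors corrected background, normalised and summarised the probes. Software versions and the build of the array annotation were not given in the sources used here. Hence no coordinates are printed for probe sets. RMA equalises the arrays, so a change in total RNA per cell cannot be seen. Array medians ran from 5.97 to 6.06 with 0 missing values, and arrays of a group correlated with r of 0.967 to 0.984. The single-colour values have no ratio direction or centring per gene that shows, and any scaling after RMA is unknown.

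Of the probe sets, 21789 have 1 gene symbol, 1621 several and 12146 none here. Symbols of 21698 matched the RefSeq gene table of GRCm38.p6. A gene took its single-symbol probe set with the highest mean, which left 19938 genes, 999 of them with a choice. Groups were assigned by title and source label. All 16 arrays entered 1 linear model per gene with moderated variances (lmFit, then eBayes, of limma 3.58.1 under R 4.3.3), which had 12 residual and 5.33 prior degrees of freedom. Tests were two-sided, with Benjamini-Hochberg adjustment over all genes in each of 6 comparisons. The median SE of a member's difference was 0.19, and precision is limited by there being 4 arrays a group. The steps were checked on simulated data with 50 genes changed at each size in PDGF-p53, far fewer than were called here. For PDGF-p53 against control, 30% of changes of 0.5 and 88% of changes of 1 were recovered, and 6.02% of calls were false. Python 3.11.15 with pandas 2.3.3, numpy 2.4.6 and matplotlib 3.10.9 served for tables, promoter windows and figures.

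The members and all gene lists were chosen with earlier results of these data known. Per-array values are given for members with the largest differences and for those called between tumour types, and lists are given by counts and up to 4 genes with the largest differences in each comparison. Hspg2, Col4a1 and Col4a2 were named after their values were seen. Alternatives were each array left out, a replicate block, other rules for probe sets, a filter on dim genes, only the 2 groups compared, trend and robust settings, quantile normalization, housekeeping centring (10 genes) and array weights, and, chosen after seeing the data, a sex term. The labels do not say whether arrays with the same replicate number share a batch, litter or day. Of 24 same-number pairs, correlations of deviations from group means ran from -0.12 to 0.18 and 7 exceeded 0.1. These values do not settle whether the numbers pair the arrays, so the block is given as an alternative only.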

Additional observations from a re-analysis of the deposited data

Results flagged for a closer look

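Within groups of 4 arrays, 4 of 140 combinations of a member and a group had 1 array far from the other 3, by a gap that chance gives in about 1 of 20 groups. Itga2 read 7.05 in p53-RBPJ replicate 2, against 6.20 to 6.32 in the other arrays of its group, and without this array Itga2 was no longer called against normal brain (adjusted p = 0.0567). The same array read 6.39 for Itga4, against 7.65 to 7.78. Lamb1 was 6.59 in PDGF-p53 replicate 3, against 7.18 to 7.20, and this array also had the highest neuron list mean among tumours. Lamb3 was 5.80 in p53-RBPJ replicate 4, against 5.42 to 5.44.

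By the threshold used, 5 members (14.3%) were lower in p53-RBPJ than in both PDGF types, as tested directly between types with limma. Of all genes, 1.93% were. Against PDGF-p53-RBPJ the p53-RBPJ values were -2.89 for Itga8, -1.34 for Itga1, -1.20 for Itgam, -1.05 for Itgav and -0.82 for Lama4, with adjusted p between 0.00207 and 0.0408. Against PDGF-p53 they were -3.59, -1.25, -0.99, -1.29 and -0.76 in the same order of genes, with adjusted p between 0.000289 and 0.0418. The calls were lost in 12 and 14 of 26 settings for Lama4, 2 and 6 for Itgam and 4 and 1 for Itgav. With a sex term only Itga8 and Itga1 stayed called.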

How the results depend on the processing

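Over 26 alternative settings, 35 of the 56 called member differences kept direction and call in each, 21 were lost in at least 1, and none reversed. Of 154 uncalled differences, 20 were called in at least 1. The count of members between the PDGF types was 0 in every setting. Leaving out single arrays gave 13 to 19 members for p53-RBPJ, 11 to 15 for PDGF-p53-RBPJ and 11 to 16 for PDGF-p53 tumours against normal brain, and 6728 to 7403, 5851 to 6757 and 5262 to 6287 genes in all. It gave 2 to 6 members and 176 to 802 genes for p53-RBPJ against PDGF-p53-RBPJ, 3 to 6 and 553 to 1323 against PDGF-p53, and 2 to 7 genes between the PDGF types. The member count against PDGF-p53-RBPJ was 3 without PDGF-p53-RBPJ replicate 1, 2 without its replicate 3 and 3 without p53-RBPJ replicate 3, and against PDGF-p53 it was 3 when either PDGF-p53 replicate 2 or replicate 2 of p53-RBPJ was left out. The gene count against PDGF-p53-RBPJ was 238, 313 and 176 without PDGF-p53-RBPJ replicates 1, 2 and 3, and 362 and 396 without p53-RBPJ replicates 3 and 4. Against PDGF-p53 it was 553 and 702 without PDGF-p53 replicates 2 and 3, and 727 without p53-RBPJ replicate 3. With only the 2 groups in the fit, p53-RBPJ against PDGF-p53 had 2 members and 289 genes (5 and 1105 in the full fit), and against PDGF-p53-RBPJ 395 genes (651 in the full fit), from fewer arrays. Array weights gave 1197 genes against PDGF-p53-RBPJ. The sex term left 2 members in each, with 61 genes against PDGF-p53-RBPJ and 183 against PDGF-p53. Housekeeping centring and the replicate block each gave 2 genes between the PDGF types, where the full fit had 4. The causes were not tested.

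Housekeeping centring moved the split of all genes to 858 higher and 418 lower for p53-RBPJ against PDGF-p53 (385 and 720 without it), 219 and 222 against PDGF-p53-RBPJ (127 and 524), 2411 and 4246 for PDGF-p53-RBPJ against normal brain (3126 and 3576) and 2024 and 4336 for PDGF-p53 (2703 and 3505). It shifted all genes by 0.12 between p53-RBPJ and each PDGF type, and 4 of the 5 members stayed called lower there, all but Lama4.

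With the replicate block the member counts were 17, 13 and 16 in p53-RBPJ, PDGF-p53-RBPJ and PDGF-p53 tumours against normal brain, and 5 in each comparison of p53-RBPJ with a PDGF type. Itga8 was then called lower in p53-RBPJ tumours than in normal brain (-0.99, adjusted p = 0.0329). Best correlation with the own number was found for 8 of 16 arrays.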
